A study of Mus musculus with 3 samples.

Results

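Interferon-stimulated genes are the genes that a cell transcribes once an interferon has bound its receptor, and 44 of them, taken as a list of symbols by no threshold on their levels, are described here across 3 immune cell populations of the mouse intestinal epithelium. This list and the other gene lists below were chosen with earlier results of these data known. Of the 44, 43 had an Ensembl ID among the 37224 gene rows, and Gbp5 was not analysed here. All 43 reached at least 1 CPM, a count divided by the library total and put on a common scale, in at least 1 library, so that minimum removed none of them. The iCD8a population was gated on CD45, a surface protein of leukocytes, together with CD8α. The ILC1 population, group 1 innate lymphoid cells, was gated on NKp46 and NK1.1. The CD11b+ population, of myeloid cells, was gated on CD45 and CD11b with cells bearing CD8α left out. All 3 populations came from RAG-2 null mice, which lack mature T and B cells, and no population with intact RAG-2 was analysed here. The sources used here give no age, sex, strain background, treatment or pooling of animals. Each population had 1 library, so no difference below has a replicate check or a test, and every interval covers counting error only.

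Type I and type III interferons act through receptors bound to JAK1 and TYK2, which activate a complex containing STAT2 and IRF9 that binds the interferon-stimulated response element (ISRE). Interferon gamma acts through JAK1 and JAK2, and its signal ends at the gamma-activated site (GAS). The induced proteins sense viral RNA, stop translation, cut RNA, block the entry of viruses into the cell or attack the vacuoles in which microbes live, and some of them regulate the response itself.

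Because these signals end at short DNA elements, the promoters of the genes were examined first. RefSeq promoter windows (GRCm38.p6) matched 32 of the 44 symbols. The 250 bases before each start were searched for the ISRE-type core GAAANNGAAA on both strands and for the GAS core TTCNNNGAA, which reads the same on both strands. Matches of a motif may overlap each other. The ISRE-type core was found in 14 of 38 windows of these genes (36.8%), against 978 of 32851 windows of all genes (2.98%). The GAS core was found in 7 of 38 windows (18.4%), against 2306 of all windows (7.02%). A match is a description of letters and not a shown binding site. Below are 6 stretches, each around the matches of the gene that stood highest per length in its role group among those with a match. Capitals mark the matches.

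They lie at chr7:140955968-140956037 on the minus strand for Ifitm2, chr4:156200845-156200926 on the minus strand for Isg15, chr11:53769894-53769962 on the plus strand for Irf1, chr11:58199481-58199555 on the plus strand for Igtp, chr3:142620574-142620643 on the plus strand for Gbp2 and chr5:120907526-120907653 on the minus strand for Oas1a, and each reads 5′ to 3′ toward its gene.
Ifitm2: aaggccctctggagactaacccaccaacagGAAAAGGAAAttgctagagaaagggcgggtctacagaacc
Isg15: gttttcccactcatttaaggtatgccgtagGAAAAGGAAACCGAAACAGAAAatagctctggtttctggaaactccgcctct
Irf1: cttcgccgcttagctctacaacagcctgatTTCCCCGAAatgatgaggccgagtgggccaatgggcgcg
Igtp: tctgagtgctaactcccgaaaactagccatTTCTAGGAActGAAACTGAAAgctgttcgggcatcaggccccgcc
Gbp2: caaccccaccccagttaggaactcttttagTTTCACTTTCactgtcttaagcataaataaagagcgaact
Oas1a: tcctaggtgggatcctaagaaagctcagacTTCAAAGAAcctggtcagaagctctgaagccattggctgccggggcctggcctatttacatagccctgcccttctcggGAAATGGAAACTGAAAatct

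The capitals in Isg15 are 3 overlapping matches of the ISRE-type core, and those in Irf1 are a GAS core alone. Igtp and Oas1a held both kinds. In Gbp2 the ISRE-type core lay on the opposite strand and reads as its reverse complement. Among the measured genes, the 13 with an ISRE-type core included 0 that were highest in iCD8a, 3 highest in ILC1 (Gbp3, Gbp7 and Igtp) and 10 highest in CD11b+. The 18 measured genes with a window and no such core included 4 highest in iCD8a, 3 in ILC1 and 11 in CD11b+. Of those 4, Adar, Ddx58 and Eif2ak2 had a counting interval against the next library that held 1. The 6 measured genes with a GAS core included 1 highest in iCD8a, 3 in ILC1 and 2 in CD11b+. The 25 with a window and no GAS core included 3 in iCD8a, 3 in ILC1 and 19 in CD11b+.

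Gene counts totalled 21678113 for iCD8a, 22181660 for the ILC1 library and 30511296 for CD11b+. Mitochondrial genes took 1.6% of them (iCD8a), 2.09% (ILC1) and 9.53% (CD11b+). Levels are CPM scaled by TMM factors, which offset the weight of a few abundant genes in a library. The sort markers were highest in the population gated on them, Cd8a and Ncr1 sharply and Klrb1c and Itgam less so. Cd8a stood at 2636 CPM in iCD8a, at 4.41 CPM in ILC1 and at 28.3 CPM in CD11b+, Ncr1 (NKp46) at 1.44 CPM (iCD8a), 396 CPM (ILC1) and 2.23 CPM (CD11b+), Klrb1c (NK1.1) at 207 CPM (iCD8a), 546 CPM (ILC1) and 14.7 CPM (CD11b+), and Itgam (CD11b) at 362 CPM (iCD8a), 187 CPM (ILC1) and 845 CPM (CD11b+). Markers of other cells were present too. The 10 dendritic cell markers had a median level of 28.5 CPM (iCD8a), 31 CPM (ILC1) and 260 CPM (CD11b+), the 8 natural killer and ILC1 markers of 63.4 CPM (iCD8a), 497 CPM (ILC1) and 19.5 CPM (CD11b+), and the 7 CD8 T-lineage markers of 709.8 CPM (iCD8a), 5.27 CPM (ILC1) and 28.3 CPM (CD11b+). Their sums rested on a few genes, and Il2rb alone gave 3288 of 3825 CPM of the natural killer and ILC1 sum in iCD8a. The 8 neutrophil markers summed to 3.94 CPM (iCD8a), 9.54 CPM (ILC1) and 239 CPM (CD11b+), with Elane and Ly6g at 0 in all 3, and the 5 B cell markers to 25.4 CPM (iCD8a), 3.04 CPM (ILC1) and 6.77 CPM (CD11b+), with Pax5 at 0 in all 3. The 13 listed intestinal epithelial markers summed to 872 CPM (iCD8a), 493 CPM (ILC1) and 1750 CPM (CD11b+), with none at 0 in any library. Their median level was 19.1 CPM (iCD8a), 19.1 CPM (ILC1) and 76.6 CPM (CD11b+). Most of the sum in iCD8a came from Cdh1 at 359 CPM, Cdh17 at 193 CPM and Epcam at 154 CPM. The 10 macrophage and monocyte markers summed to 403 CPM (iCD8a), 878 CPM (ILC1) and 8666 CPM (CD11b+), with none at 0, and had a median level of 1.48 CPM (iCD8a), 14.3 CPM (ILC1) and 310 CPM (CD11b+). Itgam alone gave 362 CPM of the sum in iCD8a, and the other 9 together gave 41.6 CPM. The 10 plasmacytoid dendritic cell markers are genes of a cell type known for type I interferon. They summed to 1114 CPM (iCD8a), 502 CPM (ILC1) and 435 CPM (CD11b+), with a median level of 103, 31.2 and 31.3 CPM in that order. Against ILC1, 7 of the 10 leaned to iCD8a, with Siglech, Spib, Ly6d and Klk1 past the 4-fold rule given below. Those 4 of 10 stand beside 3.52% of all genes. Siglech stood at 224 CPM in iCD8a and at 0.954 CPM in ILC1. Irf7, Il3ra and Runx2 leaned to ILC1, none past that rule. Against CD11b+, 8 leaned to iCD8a, 5 of them past that rule (beside 6.13% of all genes), and 2 leaned to CD11b+. Of the 10 markers 2, Bst2 and Irf7, are interferon-stimulated themselves. The part of these other cells in the results below was not tested, and in bulk libraries fewer cells of a type and less RNA per cell cannot be told apart. For the mitochondrial share, only its effect on the scaling was examined, by removal of those genes, and what lies behind the share was not tested.

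Most of the interferon-stimulated genes stood highest in CD11b+ cells. The highest level fell in iCD8a for 5 of the 43, in ILC1 for 9 and in CD11b+ for 29 (67.4%), whereas 36.9% of the 11063 genes that reached 5 CPM in some library were highest in CD11b+. The most frequent order, CD11b+ above ILC1 above iCD8a, was seen for 21 genes. The 5 genes highest in iCD8a were Ddx58, Gbp9, Ifi47, Adar and Eif2ak2. The 9 highest in ILC1 were Gbp3, Gbp7, Iigp1, Irf1, Zbp1, Dtx3l, Gbp4, Herc6 and Igtp. Guanylate-binding proteins and immunity-related GTPases, 2 families strongly induced by interferon gamma, made up 7 of these 14 and 9 of the 43 measured. For Ddx58 and Dtx3l the interval of iCD8a over ILC1 held 1 and its direction changed with the scaling, and for Adar and Eif2ak2 the interval of iCD8a over CD11b+ held 1. Among the 29 highest in CD11b+, the interval against the next library held 1 for Parp14 and Ifi44 (ILC1) and for Parp9 and Irgm1 (iCD8a). Of these, Parp14, Parp9 and Irgm1 also changed direction with the scaling.

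**Figure D1:**
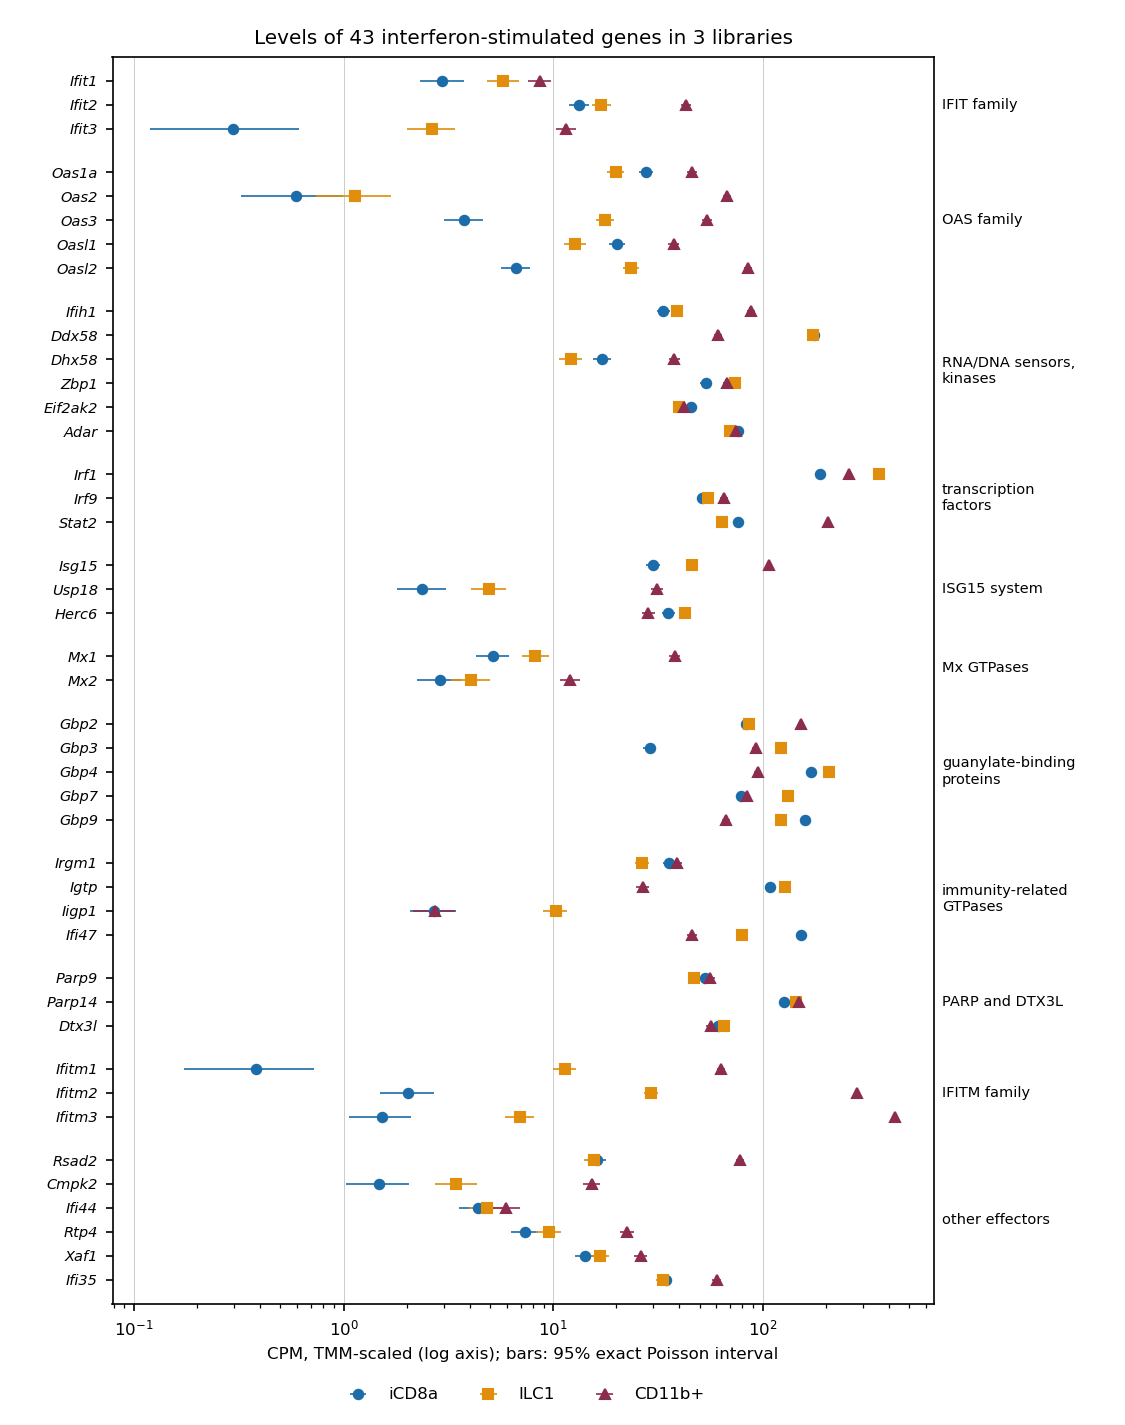
Levels of 43 interferon-stimulated genes in the iCD8a, ILC1 and CD11b+ libraries (1 each), in TMM-scaled CPM on a log axis, grouped by role, with 95% exact Poisson intervals. Ifitm1, Ifitm2 and Ifitm3 spread over more than 2 orders of magnitude, while Adar, Eif2ak2, Parp9, Parp14 and Dtx3l lie close together in all 3 libraries.

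The rule for calling a gene higher or lower asked for a fold of 4 or more, for a 95% exact counting interval whose bound nearer to 1 was 2 or more, and for 5 CPM or more in the higher library. Between iCD8a and ILC1, 0 of 37 members at 5 CPM were higher in iCD8a, where 3.52% of all genes were, and 5 of 37 were lower in iCD8a (13.5%), where 4.89% of all genes were. These 5 were Gbp3, Oas3, Ifitm1, Ifitm2 and Ifitm3, so 3 of the 5 came from the IFITM family of neighbouring genes. Between iCD8a and CD11b+, 1 of 42 was higher in iCD8a (2.38%, against 6.13% of all genes) and 12 were lower in iCD8a (28.6%, against 13.4%). Between ILC1 and CD11b+, 1 of 43 was higher in ILC1 (2.33%, against 6.01%) and 9 were lower in ILC1 (20.9%, against 13%). Igtp was the gene on the higher side in both of the last comparisons. Both share the CD11b+ library, so they are not separate evidence. All 3 IFITM genes were among the 12 and the 9 lower genes too, so these shares rest in part on that family.

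**Figure D2:**
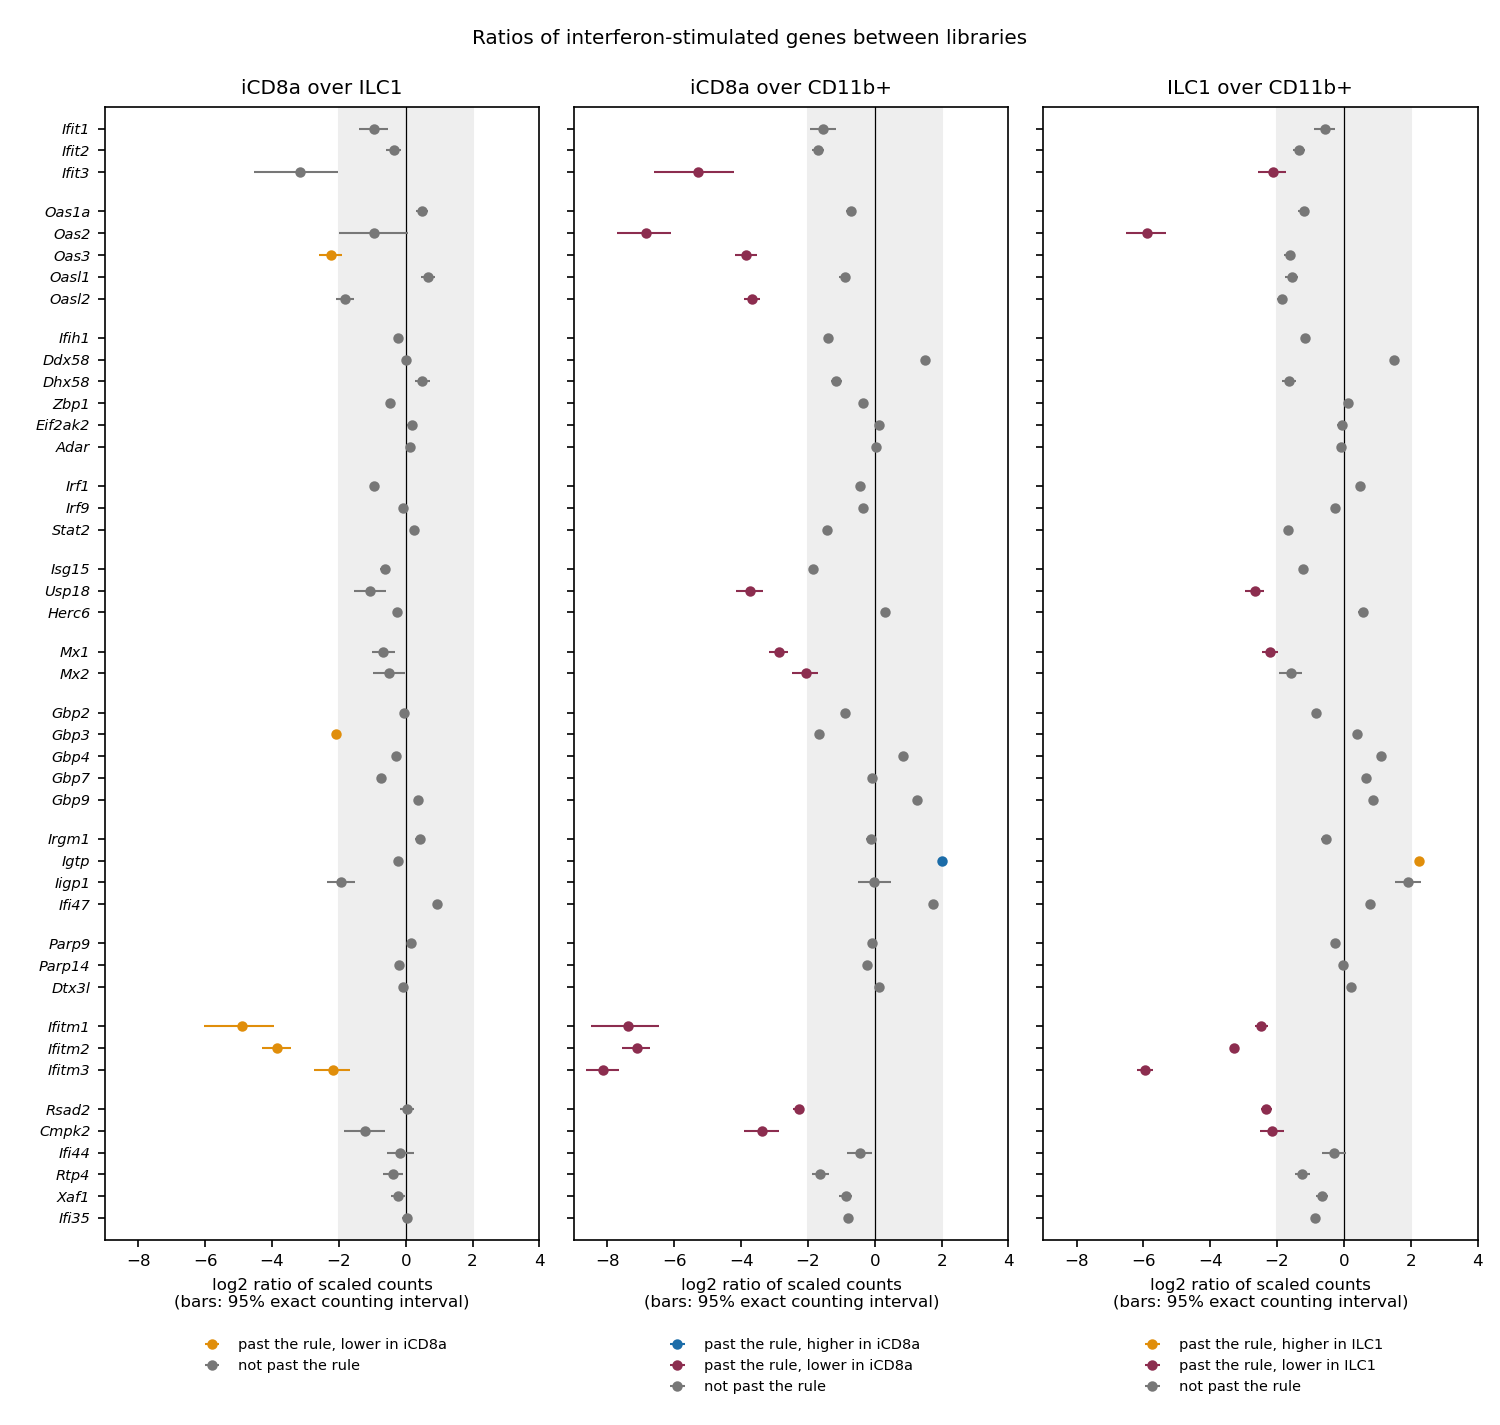
Log2 ratios of 43 interferon-stimulated genes for iCD8a over ILC1, iCD8a over CD11b+ and ILC1 over CD11b+, with 95% exact counting intervals, the grey band marking ratios under 4-fold. Colour marks genes past the rule, which are 5, 13 and 10 of those shown.

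The looser rule of a 2-fold difference with a near bound of 1.5 gave a like picture against CD11b+. By it 4 members, Ddx58, Gbp9, Ifi47 and Igtp, were higher in iCD8a (9.52%, against 16.7% of all genes) and 20 were lower (47.6%, against 20.6%). In ILC1, Ddx58, Gbp4, Igtp and Iigp1 were the 4 higher (9.3%, against 17%) and 20 were lower (46.5%, against 20.9%). Between iCD8a and ILC1, 0 were higher in iCD8a (against 9.49%) and 7 were lower (18.9%, against 10.8%), the 5 above with Iigp1 and Oasl2. The median log2 ratio over the 43 genes was −0.25 for iCD8a over ILC1, beside 0.04 over the 13649 genes that reached 1 CPM in some library. It was −0.88 for iCD8a over CD11b+, beside 0.04, and −0.83 for ILC1 over CD11b+, beside 0.00.

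**Figure D3:**
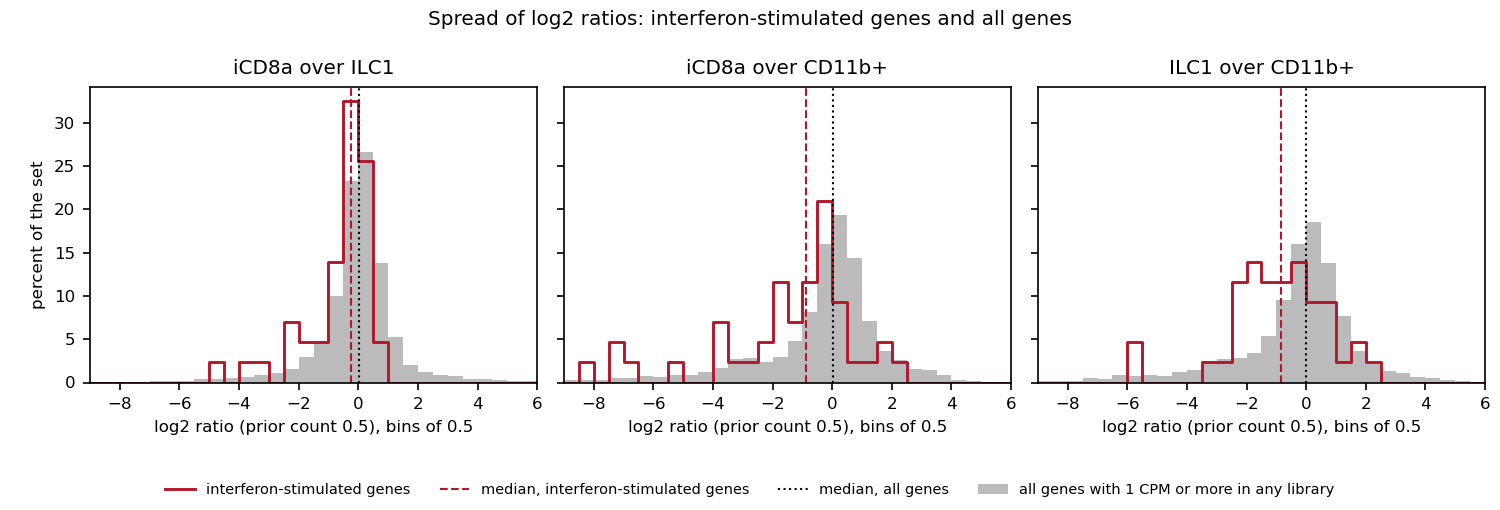
Percent of interferon-stimulated genes (red line, n = 43) and of all genes that reached 1 CPM in some library (grey bars, n = 13649) in log2 ratio bins of 0.5, for each pair of libraries, with medians as vertical lines. The red medians lie at −0.25, −0.88 and −0.83, left of the medians of all genes at 0.04, 0.04 and 0.00.

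The widest differences belonged to the IFITM family, small membrane proteins that hinder the fusion of viruses with the cell. Ifitm3 had 36 counts in iCD8a, 153 in ILC1 and 12037 in CD11b+, which is 1.52 CPM (iCD8a), 6.95 CPM (ILC1) and 427 CPM (CD11b+). Ifitm2 stood at 2.03 CPM in iCD8a, at 29.3 CPM in ILC1 and at 283 CPM in CD11b+. Ifitm1 stood at 0.381 CPM in iCD8a, from 9 counts, at 11.4 CPM in ILC1 and at 63.2 CPM in CD11b+. All 3 followed the same order, with iCD8a lowest and CD11b+ highest, and their intervals did not overlap between libraries. Against CD11b+, iCD8a was lower by 280.1-fold for Ifitm3 (interval 202 to 400.1), 139-fold for Ifitm2 (105 to 189) and 166-fold for Ifitm1 (87.3 to 364).

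The middle position of ILC1 differed from gene to gene. Ifitm3 was 61.4-fold lower in ILC1 than in CD11b+ (52.3 to 72.5) and 4.56-fold lower in iCD8a than in ILC1 (3.16 to 6.76). Ifitm1 was only 5.54-fold lower in ILC1 than in CD11b+ (4.86 to 6.35), but 29.9-fold lower in iCD8a than in ILC1 (15.5 to 66.3). The family relative Ifitm6, which was not among the 44, stood at 0.508 CPM in iCD8a, at 1.05 CPM in ILC1 and at 170.6 CPM in CD11b+. In the same 2 comparisons with CD11b+, the median log2 ratio of the macrophage and monocyte markers was −7.69 in iCD8a and −4.71 in ILC1, and that of the intestinal epithelial markers was −2.96 for each. Of the 10 macrophage and monocyte markers 9 were lower by the rule in each comparison, and of the 13 epithelial markers 10 were lower in iCD8a and 11 in ILC1. Of all genes, 13.4% were lower in iCD8a and 13% in ILC1. Itgam, the gene of the CD11b gate, was among the 9 for ILC1 and not among those for iCD8a. By these medians both lists were lower in iCD8a and in ILC1 than in CD11b+, as were the IFITM genes and the other genes called lower there. For iCD8a over ILC1 the median was −3.83 for the IFITM genes and −2.88 for the macrophage and monocyte markers. For the epithelial markers it was 0.30, so they did not follow the IFITM genes between iCD8a and ILC1. The part of either list was not tested. Of the distinct 50-base words in the annotated transcripts of Ifitm2, 48.5% also occur in transcripts of another gene, so its reads are often not unique and its level is uncertain. The share was 10% for Ifitm3 and 5.02% for Ifitm1.

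The OAS family makes short adenylate chains that switch on RNase L, an enzyme that cuts RNA in virus-infected cells. Oas2 was by far highest in CD11b+, with 14 counts in iCD8a, 25 in ILC1 and 1914 in CD11b+, which is 0.592 CPM (iCD8a), 1.14 CPM (ILC1) and 67.8 CPM (CD11b+). That is 115-fold lower in iCD8a (68.1 to 209.9) and 59.7-fold lower in ILC1 (40.3 to 92.5) than in CD11b+. Its neighbour Oas3 stood at 3.77 CPM in iCD8a, at 17.7 CPM in ILC1 and at 54.2 CPM in CD11b+, and Oasl2, an active mouse member, at 6.64 CPM (iCD8a), 23.4 CPM (ILC1) and 85 CPM (CD11b+). Both were past the rule for iCD8a over CD11b+ (14.4-fold and 12.8-fold lower in iCD8a), and neither was for ILC1 over CD11b+ (3.06-fold and 3.63-fold lower in ILC1).

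The remaining OAS genes were closer together and turned the order of iCD8a and ILC1 round. Oas1a stood at 27.8 CPM in iCD8a, at 19.9 CPM in ILC1 and at 46.0 CPM in CD11b+. Oasl1, which in mouse restrains translation of the Irf7 message, stood at 20.2 CPM (iCD8a), 12.7 CPM (ILC1) and 37.7 CPM (CD11b+). Both were higher in iCD8a than in ILC1, by 1.397-fold (1.24 to 1.58) and 1.59-fold (1.37 to 1.85), and neither passed the rule in any comparison. Oas1a shares 57.6% of its 50-base words with Oas1g and is uncertain for that reason. Oas1g itself stood at 0.889 CPM in iCD8a, at 0.954 CPM in ILC1 and at 12.8 CPM in CD11b+.

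IFIT proteins bind foreign RNA ends and block translation. Ifit3 had 7 counts in iCD8a, 58 in ILC1 and 325 in CD11b+, or 0.296 CPM (iCD8a), 2.64 CPM (ILC1) and 11.5 CPM (CD11b+), and was 38.9-fold lower in iCD8a (18.7 to 97.5) and 4.37-fold lower in ILC1 (3.30 to 5.88) than in CD11b+. It was 8.90-fold lower in iCD8a than in ILC1 (4.05 to 23.1), but at under 5 CPM in both it was not counted there. Ifit2 stood at 13.3 CPM (iCD8a), 17.0 CPM (ILC1) and 43.1 CPM (CD11b+) and Ifit1 at 2.96 CPM (iCD8a), 5.77 CPM (ILC1) and 8.61 CPM (CD11b+). All 3 genes were lowest in iCD8a and highest in CD11b+, and Ifit1 and Ifit2 did not pass the rule. Ifit3 shares 51.2% of its 50-base words with Ifit3b, which stood at 0.0846 CPM in iCD8a, at 0.273 CPM in ILC1 and at 1.35 CPM in CD11b+.

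Mx proteins are dynamin-like GTPases that trap viral particles, in mouse in the nucleus for Mx1 and in the cytoplasm for Mx2. Mx1 stood at 5.16 CPM in iCD8a, at 8.22 CPM in ILC1 and at 38.0 CPM in CD11b+. It was 7.35-fold lower in iCD8a (6.09 to 8.94) and 4.62-fold lower in ILC1 (3.94 to 5.43) than in CD11b+. Mx2 stood at 2.88 CPM (iCD8a), 4.04 CPM (ILC1) and 12.1 CPM (CD11b+), 4.2-fold lower in iCD8a (3.23 to 5.53) and, short of the rule, 2.99-fold lower in ILC1 (2.36 to 3.82). The call for Mx2 in iCD8a was lost when libraries were scaled by total gene count alone, at 3.56-fold.

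Rsad2 and Cmpk2, which lie side by side on chromosome 12, also stood highest in CD11b+. Rsad2 encodes viperin, which makes a chain-ending nucleotide, and stood at 16.1 CPM in iCD8a, at 15.6 CPM in ILC1 and at 77.9 CPM in CD11b+. It was 4.83-fold lower in iCD8a (4.33 to 5.40) and 4.99-fold lower in ILC1 (4.45 to 5.60) than in CD11b+, and its counts did not tell iCD8a and ILC1 apart (ratio interval 0.889 to 1.20). Cmpk2, a mitochondrial nucleotide kinase, stood at 1.48 CPM (iCD8a), 3.45 CPM (ILC1) and 15.3 CPM (CD11b+), 10.3-fold lower in iCD8a (7.30 to 15.0) and 4.42-fold lower in ILC1 (3.46 to 5.72). Of the other effectors, Rtp4, a chaperone of receptor trafficking, stood at 7.32 CPM in iCD8a, at 9.54 CPM in ILC1 and at 22.6 CPM in CD11b+. Ifi35 stood at 34.6 CPM (iCD8a), 33.4 CPM (ILC1) and 60.3 CPM (CD11b+) and Xaf1, which counters the cell death inhibitor XIAP, at 14.3 CPM (iCD8a), 16.7 CPM (ILC1) and 26.2 CPM (CD11b+). Ifi44 was low in each, at 4.36 CPM (iCD8a), 4.86 CPM (ILC1) and 5.96 CPM (CD11b+), and none of these last 4 genes passed the rule.

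ISG15 is a ubiquitin-like tag, and the genes around it did not move as a unit. Isg15 itself stood at 29.96 CPM in iCD8a, at 46.0 CPM in ILC1 and at 107 CPM in CD11b+, 3.58-fold lower in iCD8a (3.30 to 3.89) and 2.33-fold lower in ILC1 (2.17 to 2.50) than in CD11b+, both short of the rule. Usp18, which removes the tag and dampens type I receptor signalling, stood at 2.37 CPM (iCD8a), 4.95 CPM (ILC1) and 31.4 CPM (CD11b+), 13.3-fold lower in iCD8a (10.1 to 17.7) and 6.34-fold lower in ILC1 (5.19 to 7.81). Herc6, the main ligase for the tag in mouse, lay the other way without passing the rule, 1.25-fold higher in iCD8a (1.13 to 1.38) and 1.49-fold higher in ILC1 (1.35 to 1.64) than in CD11b+, at 35.5 CPM in iCD8a, at 42.4 CPM in ILC1 and at 28.4 CPM in CD11b+.

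The RNA sensors split in direction. Ddx58, which encodes RIG-I, stood at 174.9 CPM in iCD8a, at 173.9 CPM in ILC1 and at 61.3 CPM in CD11b+. It was 2.86-fold higher in iCD8a (2.70 to 3.02) and 2.84-fold higher in ILC1 (2.68 to 3.01) than in CD11b+, past the 2-fold rule only. Its relatives went the opposite way: Ifih1 (MDA5) stood at 33.6 CPM (iCD8a), 39.0 CPM (ILC1) and 87.9 CPM (CD11b+), and Dhx58 (LGP2), which tunes both, at 17.1 CPM (iCD8a), 12.1 CPM (ILC1) and 37.8 CPM (CD11b+). Ifih1 was 2.62-fold lower in iCD8a (2.42 to 2.84) and Dhx58 2.22-fold lower (1.97 to 2.49) than in CD11b+, again past the 2-fold rule only. Zbp1, a sensor of Z-form nucleic acids, stood at 53.4 CPM in iCD8a, at 73.5 CPM in ILC1 and at 67.8 CPM in CD11b+. Eif2ak2, the kinase PKR that halts translation, and Adar, which edits adenosine to inosine in double-stranded RNA, were close to level. Eif2ak2 stood at 45.4 CPM (iCD8a), 40.1 CPM (ILC1) and 42.0 CPM (CD11b+) and Adar at 76.5 CPM (iCD8a), 70.1 CPM (ILC1) and 74.5 CPM (CD11b+). For Eif2ak2 and Adar the ratio interval held 1 against CD11b+ in both comparisons, and 14.4% of the 50-base words of Adar lie in transcripts of Chrnb2.

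Among the transcription factors, Stat2 was the one that stood apart by more than 2-fold. It stood at 76.0 CPM in iCD8a, at 63.9 CPM in ILC1 and at 204.7 CPM in CD11b+, 2.69-fold lower in iCD8a (2.55 to 2.84) and 3.20-fold lower in ILC1 (3.02 to 3.397). Irf9, its DNA-binding partner, stood at 51.5 CPM (iCD8a), 54.7 CPM (ILC1) and 65.4 CPM (CD11b+). Irf1, an early target of interferon gamma that itself activates further genes, was highest in ILC1, at 187.7 CPM in iCD8a, at 360.5 CPM in ILC1 and at 257 CPM in CD11b+. Parp9 and Dtx3l, which form a ligase pair and lie side by side on chromosome 16, were near level with Parp14 beside them. Parp9 stood at 53.2 CPM (iCD8a), 47.2 CPM (ILC1) and 56.1 CPM (CD11b+), Dtx3l at 61.5 CPM (iCD8a), 65.3 CPM (ILC1) and 56.4 CPM (CD11b+) and Parp14 at 125.9 CPM (iCD8a), 144.7 CPM (ILC1) and 148 CPM (CD11b+). In all, 10 of the 43 (23.3%) differed by less than 1.5-fold between their highest and lowest library, against 26.3% of the genes with at least 5 CPM. The 10 were Adar, Dtx3l, Eif2ak2, Herc6, Ifi44, Irf9, Irgm1, Parp9, Parp14 and Zbp1.

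The guanylate-binding proteins, GTPases that coat and break microbial vacuoles, differed among themselves in which library was highest. Their 5 measured members summed to 520 CPM (iCD8a), 668 CPM (ILC1) and 490 CPM (CD11b+), with median log2 ratios of −0.28 for iCD8a over ILC1, −0.09 for iCD8a over CD11b+ and of 0.66 for ILC1 over CD11b+. The −0.09 is smaller than the 0.28 by which scaling by total gene count alone placed the median of all genes. None of the 5 passed the 4-fold rule against CD11b+, while by the 2-fold rule Gbp3 was lower and Gbp9 higher in iCD8a, and Gbp4 was higher in ILC1. Gbp3 stood at 28.9 CPM in iCD8a, at 121.9 CPM in ILC1 and at 92.4 CPM in CD11b+, and was 4.22-fold lower in iCD8a than in ILC1 (3.88 to 4.60) and 3.20-fold lower in iCD8a than in CD11b+ (2.94 to 3.49). The call against ILC1 was lost when libraries were scaled by total gene count alone, where the ratio was 0.260. Gbp9 leaned to iCD8a, at 159 CPM in iCD8a, at 122 CPM in ILC1 and at 67.0 CPM in CD11b+, and its neighbour Gbp4 to ILC1, at 169.7 CPM (iCD8a), 206 CPM (ILC1) and 94.5 CPM (CD11b+). Gbp2 was highest in CD11b+, at 82.9 CPM (iCD8a), 85.7 CPM (ILC1) and 152 CPM (CD11b+), and Gbp7 in ILC1, at 78.7 CPM (iCD8a), 132 CPM (ILC1) and 83.9 CPM (CD11b+). Between iCD8a and ILC1, Gbp2, Gbp4, Gbp7 and Gbp9 passed neither rule.

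The immunity-related GTPases, which regulate or destroy the same vacuoles, were the group with the highest median against CD11b+, at 0.86 on the log2 scale in iCD8a and 1.34 in ILC1. Igtp (Irgm3), a regulator of the family, stood at 108.7 CPM in iCD8a, at 128 CPM in ILC1 and at 26.8 CPM in CD11b+. It was 4.06-fold higher in iCD8a (3.74 to 4.41) and 4.79-fold higher in ILC1 (4.42 to 5.20) than in CD11b+. The first of these lay at the edge of the rule, with ratios of 3.997 under DESeq2 size factors and 3.93 in thinned libraries, while the second stayed past it under every scaling tried. Ifi47 was highest in iCD8a, at 152.9 CPM in iCD8a, at 79.3 CPM in ILC1 and at 46.2 CPM in CD11b+, and its 3.31-fold difference from CD11b+ (3.11 to 3.53) passed the 2-fold rule only.

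Iigp1 (Irga6), an effector that ruptures vacuoles, was low and highest in ILC1, at 2.71 CPM in iCD8a, at 10.3 CPM in ILC1 and at 2.73 CPM in CD11b+. It was 3.79-fold lower in iCD8a than in ILC1 (2.86 to 5.09) and 3.76-fold higher in ILC1 than in CD11b+ (2.89 to 4.94). The second of these passed the rule when libraries were scaled by total gene count alone, at 4.04-fold. Irgm1, another regulator, stood at 35.7 CPM (iCD8a), 26.6 CPM (ILC1) and 38.8 CPM (CD11b+). Unlike Igtp it was near level, and its direction for iCD8a over CD11b+ changed with the scaling. Irgm2, a relative of both that was not among the 44, followed Igtp, at 163.6 CPM in iCD8a, at 117.6 CPM in ILC1 and at 25.2 CPM in CD11b+, past the rule against CD11b+ in both comparisons. Igtp shares 11.8% of its 50-base words with Irgm2.

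Levels can be ranked between genes only per length, so CPM was divided by the length of each gene's merged exons in kb. In iCD8a the highest members per length were Ifi47 at 61.8 CPM per kb, Igtp at 53.8, Irf1 at 47.2 and Isg15 at 39.6. In ILC1 they were Irf1 at 90.7, Igtp at 63.5, Isg15 at 60.9 and Ifitm2 at 44.7. In CD11b+ they were Ifitm3 at 629, Ifitm2 at 432, Isg15 at 142 and Irf1 at 64.7 CPM per kb. Irf1 and Isg15 thus stood among the 4 highest in every library, while 2 immunity-related GTPases led iCD8a and 2 IFITM genes led CD11b+. Among all 35449 genes with a length, Ifitm3 ranked 8783 (iCD8a), 4304 (ILC1) and 57 (CD11b+), and Ifitm2 ranked 7992 (iCD8a), 1080 (ILC1) and 80 (CD11b+).

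**Figure D4:**
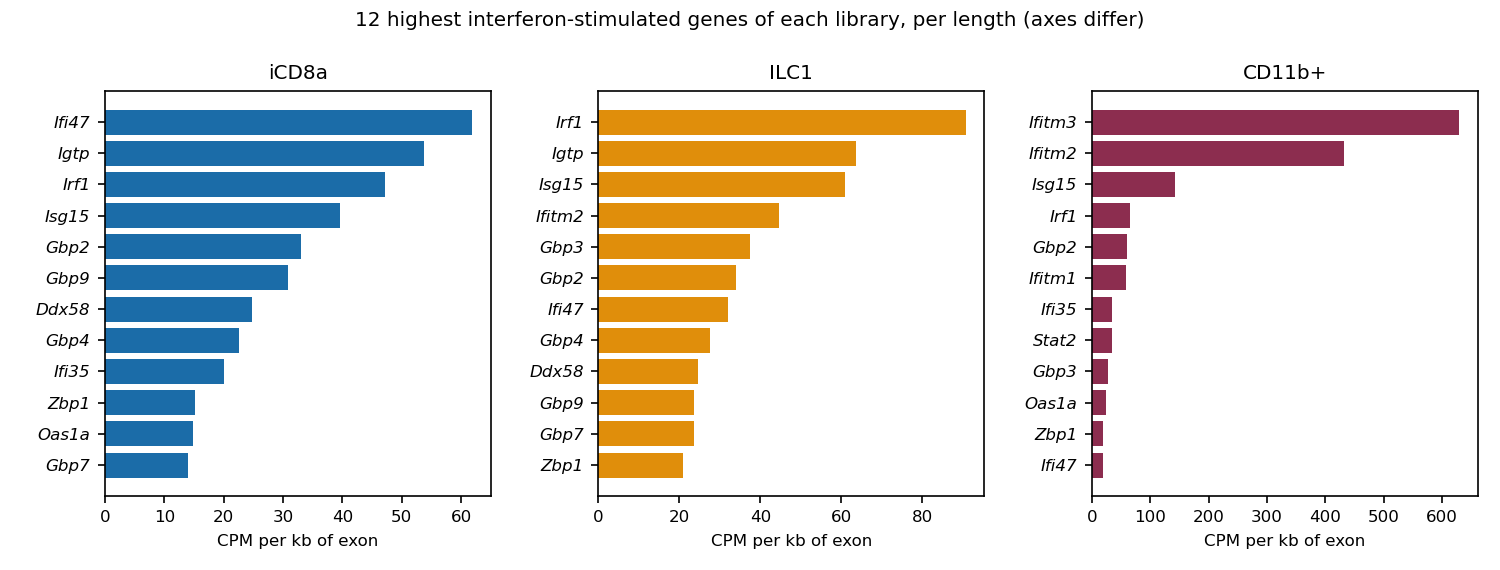
The 12 interferon-stimulated genes with the highest CPM per kb of exon in each library, with axes that differ between panels. Ifi47 leads in iCD8a (61.8), Irf1 in ILC1 (90.7) and Ifitm3 in CD11b+ (629).

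Genes that lie next to each other were not always alike. RefSeq placed 11 pairs of these genes as direct protein-coding neighbours. Ifitm2, Ifitm1 and Ifitm3 on chromosome 7 shared 1 direction, as did Rsad2 and Cmpk2 against CD11b+. On chromosome 5, Oas2 was 115-fold and its neighbour Oas3 14.4-fold lower in iCD8a than in CD11b+. There too, Oasl2 was 12.8-fold and its neighbour Oasl1 1.86-fold lower in iCD8a than in CD11b+, the last short of both rules. On chromosome 3, Gbp3 was past the rule for iCD8a over ILC1 and its neighbour Gbp7 was not, at 1.68-fold lower in iCD8a.

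Of the interferon genes themselves, 1 of 15 measured reached 1 CPM. Ifng was at 6.94 CPM in iCD8a, at 208 CPM in ILC1 and at 2.91 CPM in CD11b+, 29.97-fold lower in iCD8a than in ILC1 (25.6 to 35.2) and 71.6-fold higher in ILC1 than in CD11b+ (57.5 to 90.1). Ifnb1 had 0 counts in iCD8a, 0 in ILC1 and 3 in CD11b+. A count of 0 allows up to 0.127 CPM (iCD8a), 0.136 CPM (ILC1) and 0.106 CPM (CD11b+). The 8 measured Ifna genes had 1 count in all, Ifna4 in ILC1. Ifnl2, a type III interferon, had 9 counts in iCD8a, or 0.381 CPM, and 0 in the others.

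The receptors and their kinases were present in all 3 libraries except Ifnlr1, the type III receptor chain, with 1 count in iCD8a, 0 in ILC1 and 41 in CD11b+. Ifnar1 and Ifnar2, the type I receptor chains, stood at 124 and 44.4 CPM in iCD8a, at 384.5 and 36.4 CPM in ILC1, and at 244 and 71.2 CPM in CD11b+. The interferon gamma receptor was uneven. Ifngr1, which binds the ligand, stood at 625 CPM in iCD8a, at 1946 CPM in ILC1 and at 515 CPM in CD11b+. Ifngr2, the signalling chain, stood at 10.5 CPM in iCD8a, at 2.14 CPM in ILC1 and at 186 CPM in CD11b+, which is 17.7-fold lower in iCD8a (15.6 to 20.2) and 87.3-fold lower in ILC1 (65.6 to 119) than in CD11b+. It was also 4.93-fold higher in iCD8a than in ILC1 (3.60 to 6.89). The kinase genes Jak1, Jak2 and Tyk2 did not pass the rule in any comparison, and Jak1, which all of these receptors use, stood at 584 CPM in iCD8a, at 914 CPM in ILC1 and at 299.6 CPM in CD11b+.

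Among other interferon regulatory factors, Irf4 and Irf5 were lower in iCD8a and in ILC1 than in CD11b+, and Irf8 was higher in ILC1 than in CD11b+ (4.94-fold, 4.81 to 5.08). Irf5, which drives inflammatory genes in macrophages, stood at 29.6 CPM in iCD8a, at 104 CPM in ILC1 and at 478 CPM in CD11b+. Irf7, the amplifier of type I interferon, was near level at 123 CPM in iCD8a, at 150 CPM in ILC1 and at 154 CPM in CD11b+. Of 11 sensing adaptors, kinases and Toll-like receptors, Tlr3 and Trim25 were lower in iCD8a than in CD11b+ (18.2%, against 13.4% of all genes). Tlr3, Tlr7, Tlr9 and Trim25 were lower in ILC1 than in CD11b+ (36.4%, against 13%). Trim25, a ubiquitin ligase that activates RIG-I, stood at 76.1 CPM in iCD8a, at 56.8 CPM in ILC1 and at 990.4 CPM in CD11b+, 13.01-fold lower in iCD8a (12.4 to 13.7) and 17.4-fold lower in ILC1 (16.5 to 18.5). It was highest in CD11b+, where Ddx58, the gene of RIG-I, was lowest. Tlr7 and Tlr9, endosomal sensors typical of plasmacytoid dendritic cells, were higher in iCD8a than in ILC1, Tlr7 with 35.7 CPM in iCD8a against 5.04 CPM in ILC1 and Tlr9 with 11.3 CPM in iCD8a against 0.136 CPM, from 3 counts, in ILC1. Of 9 feedback inhibitors, Socs3 was lower in iCD8a than in ILC1 and than in CD11b+, at 32.8 CPM in iCD8a, at 522 CPM in ILC1 and at 301.7 CPM in CD11b+. Socs1, which blocks JAK kinases, was higher in ILC1 than in CD11b+, at 14.2 CPM (iCD8a), 45.8 CPM (ILC1) and 8.61 CPM (CD11b+).

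A further list of 74 interferon-stimulated genes had 70 at 1 CPM or more. Of its 66 genes at 5 CPM in iCD8a or CD11b+, 17 were lower in iCD8a (25.8%, against 13.4% of all genes) and 2 were higher, Apol9b and Tnfsf10 (3.03%, against 6.13%). Of its 66 at 5 CPM in ILC1 or CD11b+, 16 were lower in ILC1 (24.2%, against 13%) and 4 were higher, Cd69, Mov10, Nlrc5 and Tnfsf10 (6.06%, against 6.01%, near the share of all genes). The medians were −0.36 in iCD8a and −0.30 in ILC1 on the log2 scale, nearer to all genes than those of the 43. Between iCD8a and ILC1, 2 of 55 were higher in iCD8a, Apol9b and Ifi27l2a (3.64%, against 3.52%), and 1 was lower, Cxcl10 (1.82%, against 4.89%). Of the 37 members at 5 CPM above, 0 were higher and 5 lower (13.5%), and 3 of those 5 were IFITM genes. Samhd1, which starves viruses of nucleotides, stood at 129.9 CPM in iCD8a, at 157.7 CPM in ILC1 and at 1027 CPM in CD11b+. Cxcl9, a chemokine induced by interferon gamma, stood at 0.931 CPM (iCD8a), 0.772 CPM (ILC1) and 92.7 CPM (CD11b+), whereas Cxcl10, its relative, stood at 35.3 CPM (iCD8a), 246.6 CPM (ILC1) and 137 CPM (CD11b+). Ciita, the switch for MHC class II genes, stood at 6.86 CPM in iCD8a, at 2.86 CPM in ILC1 and at 329.9 CPM in CD11b+. In the opposite direction, Tnfsf10, the death ligand TRAIL, stood at 317 CPM in iCD8a, at 142 CPM in ILC1 and at 31.4 CPM in CD11b+. Nlrc5, the switch for MHC class I genes, was higher in ILC1 than in CD11b+, at 216 CPM (iCD8a), 389.5 CPM (ILC1) and 84.5 CPM (CD11b+). Fcgr1, which was lower in iCD8a and in ILC1 than in CD11b+, is also on the macrophage and monocyte list.

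Finally, 14 close relatives of the 44 genes reached 1 CPM. Of the 10 at 5 CPM in iCD8a or CD11b+, Gbp11 and Irgm2 were higher in iCD8a (20%, against 6.13% of all genes). Ifitm6 and Oas1g were lower in iCD8a (20%, against 13.4%). Of the 9 at 5 CPM in ILC1 or CD11b+, Irgm2 was higher in ILC1 (11.1%, against 6.01%). Ifitm6 and Oas1g were lower in ILC1 (22.2%, against 13%). Of the 7 at 5 CPM in iCD8a or ILC1, Gbp11 was higher in iCD8a (14.3%, against 3.52%) and Gbp2b lower (14.3%, against 4.89%). Gbp2b stood at 26.9 CPM (iCD8a), 125 CPM (ILC1) and 54.9 CPM (CD11b+). Each of these shares rests on 1 or 2 genes. Ifitm6 had the widest difference among them, 336-fold lower in iCD8a (192 to 651) and 163-fold lower in ILC1 (109 to 258) than in CD11b+.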

How the data were processed

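The authors deposited HTSeq read counts for each Ensembl gene, not normalized. Per the series' design text they aligned reads with TopHat and counted them with HTSeq. CASAVA 1.9 and TopHat2 are named in the submitters' processing notes. The build, annotation and strand setting behind the counts are not stated in the labels or headers, and reads of overlapping genes cannot be assigned with certainty. The 5 rows that name no gene were left out. Not unique alignments, which were not counted, were 26.9% of all tallied reads for iCD8a, 34.5% for ILC1 and 30.5% for CD11b+.

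Symbols and exon lengths came from GENCODE M21, which matched 35449 of 37224 IDs. TMM factors (edgeR 4.0.16, R 4.3.3) came to 1.09 (iCD8a), 0.992 (ILC1) and 0.925 (CD11b+). Fold intervals are 95% exact conditional binomial (Clopper-Pearson) and level intervals exact Poisson (scipy 1.17.1, Python 3.11.15). The labels record no molecular identifiers, reads may repeat a molecule, and so the intervals, like the limit of 3 counts for a count of 0, hold counting error alone. Log2 medians used a prior count of 0.5. With 1 library per population no p-value was computed. Shared words were counted over 50-base stretches of GENCODE transcripts. The steps were tested on simulated counts.

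All 44 genes were to be named, and pathway genes when past the rule or among the most abundant of their list. Irf7, Ifnar2, Ifnlr1, Ifnb1, Ifna4, Ifnl2 and Ifit3b were named after their values were seen, and some pathway genes are not reported here. The members were a list of symbols, and they and the other lists were chosen with earlier results of these data known. Alternatives were total gene count, DESeq2 1.42.0 and upper-quartile scaling, thinning to 21678113 counts, removal of 37 mitochondrial genes, and other minimums, folds and prior counts.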

Additional observations from a re-analysis of the deposited data

How the results depend on the processing

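No paired analysis was possible because each population had 1 library, and no library could be left out. No member past the rule changed direction under any of the 5 other scalings. Scaling by total gene count moved the median log2 ratio of all genes to 0.18 (iCD8a over ILC1), 0.28 (iCD8a over CD11b+) and 0.10 (ILC1 over CD11b+), and so moved 57 of 129 member folds outside their counting intervals. Upper-quartile factors moved 10, and removal of the 37 mitochondrial genes moved 0 and changed no call. The calls of Gbp3 (iCD8a over ILC1) and Mx2 (iCD8a over CD11b+) were lost and that of Iigp1 (ILC1 over CD11b+) gained by total gene count, and that of Igtp (iCD8a over CD11b+) was lost under DESeq2 size factors and in thinned libraries. Directions near level flipped with scaling for 6 members between iCD8a and ILC1 (Ddx58, Irf9, Gbp2, Dtx3l, Rsad2 and Ifi35), 5 between iCD8a and CD11b+ (Gbp7, Irgm1, Iigp1, Parp9 and Parp14) and 3 between ILC1 and CD11b+ (Eif2ak2, Adar and Parp14). For iCD8a over ILC1, 5 members were lower in the main count, 2 with a minimum of 20 CPM, 2 with a fold of 8 and 2 without the IFITM family, an alternative added after seeing the data. The share of all genes was 4.89% by the main rule and is not given here for the other settings. All 3 IFITM genes were also among the lower members in both comparisons with CD11b+. For iCD8a over CD11b+, the 1 higher member became 0 under DESeq2 size factors, in thinned libraries and with a fold of 8, and 4 with a fold of 2, where the 12 lower became 20. The median of −0.88 was −0.64 by total gene count. For ILC1 over CD11b+, the 1 higher member became 2 by total gene count, 4 with a fold of 2 and 0 with a fold of 8, and the 9 lower became 20 and 3 with those folds. The median of −0.83 was −0.73 by total gene count, −0.74 with upper-quartile factors, −0.65 without the families of near copies and −0.61 without the IFITM family. Members under about 5 CPM, such as Ifit3 and Ifitm1 in iCD8a, rest on few counts.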
